A study of Mus musculus with 6 samples.

Results

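The epidermal growth factor (EGF) receptor family was examined as 10 genes: the 7 ligand genes Areg, Tgfa, Epgn, Egf, Hbegf, Btc and Ereg and the 3 receptor genes Egfr, Erbb2 and Erbb3. They were picked by symbol from the 17564 genes of the deposited table, where each had 1 row, and all 10 passed the filter on low values that left 15534 genes for testing. RNA came from whole back skin of wild-type C57BL/6 mice aged 8 weeks, shaved and depilated in both groups, with 3 samples per group. The treated group was given 3 µg of SspA, a Staphylococcus aureus protease also called V8, and 10 µg of HDM (extract of house dust mites) topically, again 3 days later, and was collected on day 7 after the first application. The untreated group received neither agent, and the labels give no collection day for it. If the groups differed in time since depilation, its effect cannot be told apart from that of the agents. Whether samples within a group are from separate mice is not in the labels, so p-values reflect only how far these samples differ among themselves, possibly for technical reasons.

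EGF family ligands are made as membrane-anchored precursors that ADAM metalloproteases cut free. They bind EGFR, and some also bind ERBB4, and the bound receptor pairs with another family member such as ERBB2, which has no known ligand of its own, or ERBB3, whose kinase is weak. The pairs signal through adaptors to the RAS-MAPK (ERK) cascade, and in skin the pathway is known for keratinocyte growth and migration in wound repair and for control of the hair follicle. The comparison asked how this family was expressed in skin after the protease and the mite extract.

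Values are scaled reads, the reads of a gene divided by 1 factor per library so that each library sums to about the same total. The 6 libraries held between 4928245 reads (untreated replicate 2) and 7545567 reads (treated replicate 3), and 1 read was worth 0.84 to 1.29 scaled reads. The keratin genes Krt5 and Krt14, Col1a1 and the other listed markers of basal keratinocytes and fibroblasts had reads in both groups. U1 to U3 and T1 to T3 below are untreated and treated replicates 1 to 3. In whole tissue, fewer cells of a type and less RNA per cell cannot be told apart.

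In treated skin 3 ligand genes rose, Areg 3.18-fold, Hbegf 1.84-fold and Tgfa 1.53-fold, and 1 ligand gene, Btc, fell to 0.445 of the untreated level. Epgn, Egf and Ereg were not called, nor was any of the 3 receptor genes. Calls were made by limma across all tested genes where the adjusted p was under 0.05, a rule that called 9.26% of them higher and 7.23% lower. The rises were called in all 20 alternative fits at the same threshold, with other scalings, tools, filters and libraries, whereas the fall of Btc was called in 12 of the 20. The groups did not overlap for Areg, Hbegf and Tgfa (treated higher, as for 21.7% of tested genes) or for Btc and Egf (treated lower, as for 15.6%). The median log2 fold change of the 7 ligand genes was 0.16 and that of the 3 receptor genes 0.09, beside 0.032 over all tested genes.

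Areg, Epgn, Ereg and Btc lie side by side on chromosome 5. RefSeq promoters (GRCm38.p6) could be matched for 7 of the 10 genes. None was available for Ereg, the gene next before Areg, nor for Hbegf, which rose, or Erbb3. The 250 bases before the start site are shown for Areg, for its neighbours Epgn and Btc, which did not rise, and for Tgfa, which rose from another chromosome. Capitals mark matches to the cAMP response element TGACGTCA or the TATA box TATAAA. The windows lie at chr5:91139349-91139598 (plus strand) for Areg, chr5:91027267-91027516 (plus strand) for Epgn, chr5:91402995-91403244 (minus strand) for Btc and chr6:86194972-86195221 (plus strand) for Tgfa. The Tgfa window ends a few bases short of the gene start given below (86195227), and so precedes a slightly different RefSeq start.
Areg: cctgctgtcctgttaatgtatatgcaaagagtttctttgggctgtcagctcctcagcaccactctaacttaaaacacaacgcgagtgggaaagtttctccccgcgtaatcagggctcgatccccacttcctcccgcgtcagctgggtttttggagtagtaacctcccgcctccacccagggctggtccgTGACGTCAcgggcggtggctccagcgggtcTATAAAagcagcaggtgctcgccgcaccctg
Epgn: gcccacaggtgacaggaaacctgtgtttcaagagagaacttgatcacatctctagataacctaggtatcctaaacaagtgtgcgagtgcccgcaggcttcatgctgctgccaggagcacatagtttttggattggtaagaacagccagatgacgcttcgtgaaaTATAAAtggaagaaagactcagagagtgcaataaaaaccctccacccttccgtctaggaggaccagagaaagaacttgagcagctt
Btc: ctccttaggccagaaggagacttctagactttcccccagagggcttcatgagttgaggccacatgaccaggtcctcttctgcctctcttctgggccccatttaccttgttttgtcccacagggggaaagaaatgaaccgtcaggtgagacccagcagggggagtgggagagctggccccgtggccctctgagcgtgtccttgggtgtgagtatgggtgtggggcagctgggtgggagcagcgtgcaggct
Tgfa: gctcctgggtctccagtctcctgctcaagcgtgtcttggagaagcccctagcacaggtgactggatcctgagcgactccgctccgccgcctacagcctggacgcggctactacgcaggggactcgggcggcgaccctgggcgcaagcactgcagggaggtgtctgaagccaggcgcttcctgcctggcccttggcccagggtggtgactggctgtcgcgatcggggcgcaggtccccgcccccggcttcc
The Areg promoter held TGACGTCA at 61 to 54 bases and TATAAA at 31 to 26 bases before the start. On both strands, TGACGTCA occurred in 1.55% and TATAAA in 12.4% of 32851 promoter windows of this length. The 2 matches in the Areg promoter did not overlap. Epgn held TATAAA only, at 86 to 81 bases before the start. The AP-1 motif TGANTCA (6.75% of windows) had no match in the 7 genes, and Btc, Tgfa, Egf, Egfr and Erbb2 had no match to any of the 3 motifs.

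Areg encodes amphiregulin, a ligand of EGFR made by keratinocytes and by several immune cells (chromosome 5, 91139599 to 91148432, mm10). It had 52.7, 48.9 and 49.99 scaled reads in U1 to U3 and 205.8, 143.8 and 146.2 in T1 to T3. Every treated library lay well above a narrow untreated range. The mean went from 50.5 ± 1.98 to 165 ± 35.1 (SD, n = 3), a log2 fold change of 1.67 ± 0.19 SE with adjusted p = 0.00173 by limma, and over the 20 alternatives the adjusted p did not exceed 0.0103. The rise rested on 130 untreated and 488 treated reads.

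Hbegf encodes heparin-binding EGF-like growth factor, a ligand of EGFR and ERBB4 known for keratinocyte migration (chromosome 18, 36504927 to 36515805). It had 269.2, 266.3 and 210.2 scaled reads in the untreated and 528.1, 450.9 and 398.3 in the treated libraries. The lowest treated library stood above the highest untreated one. Hbegf had a log2 fold change of 0.88 ± 0.14 SE (limma adjusted p = 0.0058, 0.0265 or less in the alternatives).

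Tgfa encodes transforming growth factor alpha, whose loss gives mice a wavy coat (chromosome 6, 86195227 to 86275743). Its values were 579.1, 450.3 and 457.9 in the untreated and 851.5, 702.5 and 720.1 in the treated libraries. The groups again stayed apart, with U1 nearest to the treated range. Tgfa had a log2 fold change of 0.62 ± 0.12 SE (limma adjusted p = 0.0117, 0.0439 or less in the alternatives).

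**Figure D1:**
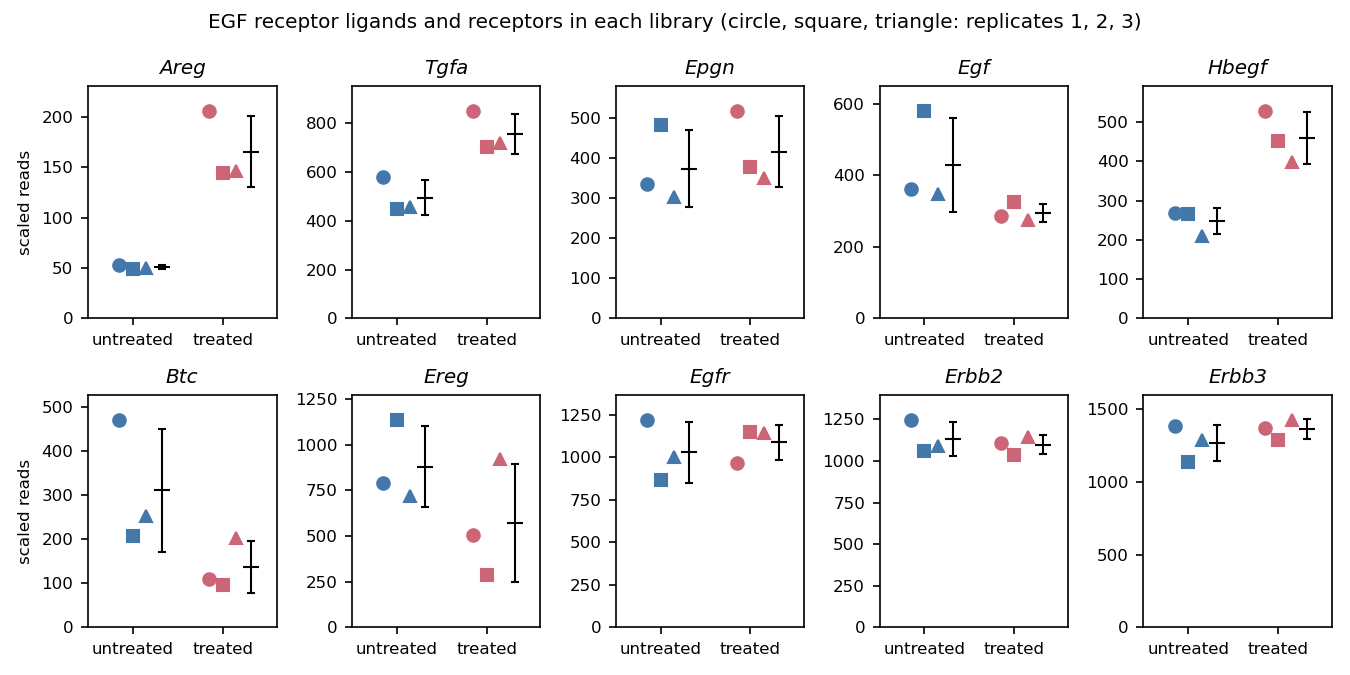
Scaled reads (y axis, from 0) of the 10 genes in the 3 untreated (blue) and 3 treated (red) libraries, with circle, square and triangle for replicates 1, 2 and 3 and black bars for mean ± SD. Areg, Hbegf and Tgfa lie apart and higher in treated skin, Btc and Egf apart and lower, and the other genes overlap.

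Markers of infiltrating cells moved with these rises. Of the neutrophil markers, 7 of 7 tested were higher, and their summed level was 464 to 675 scaled reads in untreated and 1388 to 3969 in treated libraries. Ly6g, which defines neutrophils, was at 0 in the untreated group. T1, with the highest neutrophil sum, also had the highest Areg, Hbegf and Tgfa. T2 and T3 did not keep that order for every ligand. Their neutrophil sums were 3131 and 1388, with Areg at 143.8 and 146.2, Tgfa at 702.5 and 720.1 and Hbegf at 450.9 and 398.3. Of the monocyte and macrophage markers 3 of 8 were higher (summed 2807 to 3727 and 3881 to 5550), and of the T cell and ILC markers 5 were higher and 1 lower of 8 (summed 1414 to 1571 and 1749 to 1986). Of the mast cell and basophil markers 3 of 6 were higher (summed 1365 to 1929 and 1900 to 2143). Basal keratinocyte markers summed to 11238 to 11920 and 9222 to 11943, with 0 of 6 higher and 1 lower. Suprabasal keratinocyte markers summed to 10926 to 11586 and 9495 to 11001, with 0 of 6 higher and 2 lower. Of the wound-type keratinocyte markers 1 of 5 was higher and 0 lower. Their sums were 4064 to 4227 in untreated libraries and 5570, 5125 and 3684 in T1, T2 and T3. The most reads per base of transcript for any gene lay between 0.86 and 0.923 in each library. If a position is counted once, sums of abundant genes such as keratins are held down, so these keratinocyte sums may understate a change. The part of infiltrating cells and keratinocytes in the ligand rises was not tested.

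Btc encodes betacellulin, a ligand of EGFR and ERBB4 (chromosome 5, 91357261 to 91402994). It had 471.4, 208.4 and 253.4 scaled reads in U1 to U3 and 109.7, 96.9 and 204.2 in T1 to T3. U1 stood far above U2 and U3, and T3 came close to U2. Btc had a log2 fold change of -1.17 ± 0.34 SE (limma adjusted p = 0.0477). It lost the call without U1 (limma adjusted p = 0.136, log2 fold change -0.82), U3 (0.0725), T1 (0.13) or T2 (0.146), and also with edgeR (0.0543), limma-voom (0.0708) or no trend in the spread (0.11). DESeq2 on the recovered reads called it (log2 fold change -1.22, adjusted p = 0.00142). The authors' deposited table does not, giving Btc a log2 fold change of -1.23 with adjusted p = 0.069. The cause of this gap was not tested.

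Ereg encodes epiregulin, a ligand of EGFR and ERBB4 (chromosome 5, 91074617 to 91093649). Its values were 789.0, 1136.0 and 716.9 in the untreated and 507.7, 285.3 and 922.6 in the treated libraries. T1 and T2 lay below every untreated library, while T3 lay between U1 and U2. The log2 fold change of -0.75 (95% interval -1.57 to 0.06) did not pass (limma adjusted p = 0.191). Without T3 it was -1.18 with adjusted p = 0.0143, and in the 4 libraries of like depth, without U2 and T3, it was -0.98 with adjusted p = 0.0191. Without T2 it was -0.33 (limma adjusted p = 0.49), and without U2 it was -0.56 (0.447).

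Egf encodes the founding ligand of the family (chromosome 3, 129677577 to 129755322). It had 361.5, 580.2 and 346.5 scaled reads in the untreated and 285.0, 324.5 and 275.6 in the treated libraries. All treated values lay below all untreated ones, but U2 stood far above U1 and U3. Egf had a log2 fold change of -0.50 (95% interval -0.92 to -0.08, unadjusted) and did not pass (limma adjusted p = 0.0984), and it was -0.27 without U2. DESeq2 on the recovered reads called it (adjusted p = 0.029), as does the authors' deposited table (log2 fold change -0.58, adjusted p = 0.0283).

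Epgn encodes epigen, a ligand of EGFR (chromosome 5, 91027517 to 91035212). With 335.1, 483.7 and 303.4 untreated and 517.9, 379.0 and 351.2 treated scaled reads, its groups overlapped. The log2 fold change was 0.16 (95% interval -0.28 to 0.60, limma adjusted p = 0.62), so a rise of up to 1.52-fold or a fall to 0.824 of the untreated level lies within the interval.

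Markers of skin appendages and fat moved beside the lower ligands. Of the sebaceous gland markers 4 of 6 were lower (summed 3127 to 3899 untreated, 1724 to 2548 treated), and of the outer root sheath and bulge markers 3 of 5 were lower (4130 to 4637 and 3093 to 3667). Of the adipocyte markers 3 of 6 were lower (4979 to 6255 and 3597 to 4353). Of the growing hair follicle markers 6 of 9 were higher, with sums of 809 to 897 in untreated libraries and of 2639, 1376 and 5314 in T1, T2 and T3. T3 had the highest and T2 the lowest treated value of that sum, of Ereg and of Btc. None of these markers was at 0 in a whole group, and their part in the ligand values was not tested.

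**Figure D2:**
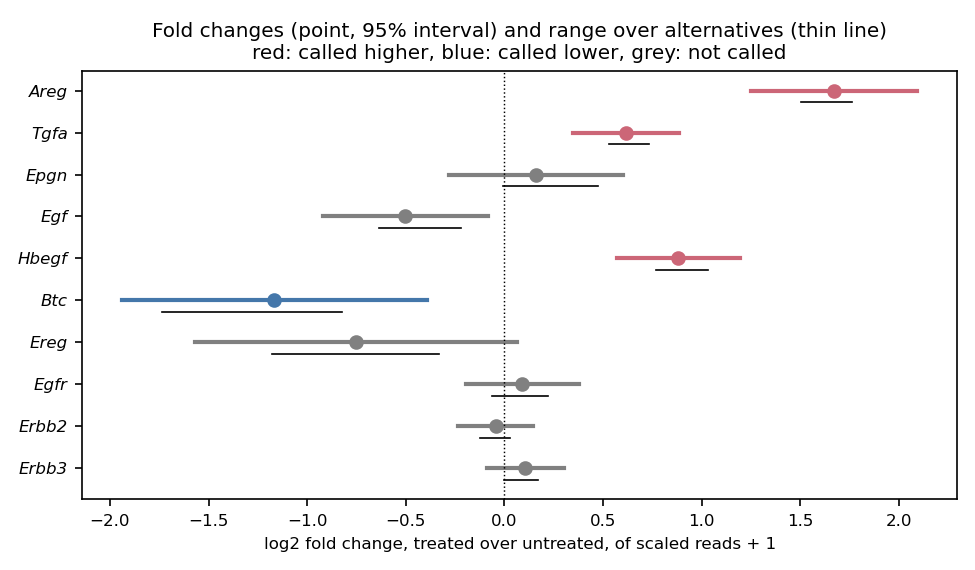
Log2 fold change (treated over untreated, x axis) of each gene with its 95% interval (thick line, not adjusted over genes) and the range of the fold change over the 20 alternatives (thin line below). Areg, Hbegf and Tgfa sit to the right of 0, Btc to the left, and the intervals of Egfr, Erbb2 and Erbb3 span 0.

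No receptor gene was called. The 95% intervals, not adjusted over genes, give the changes that the spread among these samples allows. Egfr, the common receptor of the 7 ligands (chromosome 11, 16752203 to 16913907), had 1219, 865 and 999.8 scaled reads in the untreated and 968, 1149 and 1143 in the treated libraries. The treated values fell inside the untreated range. The log2 fold change was 0.09 (95% interval -0.20 to 0.38, limma adjusted p = 0.678), which allows from 0.872 to 1.30 of the untreated level. Erbb2 (chromosome 11, 98412484 to 98437716) had 1247, 1059 and 1091 untreated and 1109, 1035 and 1146 treated scaled reads. Its groups overlapped, with a log2 fold change of -0.04 (-0.23 to 0.15, adjusted p = 0.771). Erbb3 (chromosome 10, 128567523 to 128589635) had 1379, 1137 and 1285 untreated and 1371, 1288 and 1424 treated scaled reads, and a log2 fold change of 0.11 (-0.09 to 0.30, adjusted p = 0.447). A difference smaller than these limits cannot be told from none. Markers of melanocytes and Schwann cells, which are known to carry ERBB3, moved in opposite directions, with 5 of 6 melanocyte markers higher (summed 927 to 1077 and 2008 to 2540) and 3 of 6 Schwann cell markers lower (2995 to 3659 and 2349 to 2437), and their part in the Erbb3 level was not tested.

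Per kb of transcript, which lets genes be compared, Areg was the lowest of the 10 genes in untreated skin at 41.9 ± 1.64 scaled reads per kb (SD, n = 3). Its highest library, 43.7, was below the lowest library of the next genes up (72.7 for Btc, 73.3 for Egf). Egf (90.8 ± 27.7), Hbegf (105 ± 14.1), Btc (108 ± 49.0) and Tgfa (109 ± 15.9) followed within each other's spread. Egfr (173 ± 30.1), Erbb3 (212 ± 20.4), Ereg (213 ± 54.3), Epgn (220 ± 56.7) and Erbb2 (228 ± 20.3) formed an upper set in which neighbours in this order overlapped. In treated skin Areg reached 137 ± 29.1 per kb, within the spread of Ereg (139 ± 78.3) and below the mean of Tgfa (167 ± 17.9). Hbegf reached 194 ± 27.6, beside Egfr at 183 ± 17.3. Btc (47.7 ± 20.4) and Egf (62.4 ± 5.49) were then the lowest, below Epgn (245 ± 52.6), Erbb3 (228 ± 11.5) and Erbb2 (221 ± 11.4).

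Areg, Hbegf and Tgfa took a larger share of the ligand mRNA in every treated library than in any untreated one. The summed ligand level overlapped between the groups. Summed over the 7 ligands, the level was 914, 1008 and 745 scaled reads per kb in U1 to U3 and 1108, 859 and 1008 in T1 to T3, with T2 between U1 and U3. The ratio of that sum to Egfr per kb was 4.45, 6.92 and 4.42 in untreated and 6.79, 4.44 and 5.23 in treated libraries, again with overlap. Areg made up 4.79% ± 0.77 of the sum in untreated and 13.8% ± 1.69 in treated skin, and Hbegf 11.8% ± 0.641 and 19.7% ± 2.77. The share of Tgfa was 12.4% ± 2.26 and 16.9% ± 1.14. That of Epgn was 24.6% ± 3.39 and 24.7% ± 3.68. Btc was at 12.3% ± 5.40 and 4.82% ± 1.96, Egf at 10.1% ± 1.92 and 6.40% ± 1.38, and Ereg at 23.8% ± 3.23 and 13.8% ± 7.43. These shares describe mRNA, with no test, and a gain of 1 ligand lowers the shares of the others. They come from the same values as the calls and are no separate evidence.

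**Figure D3:**
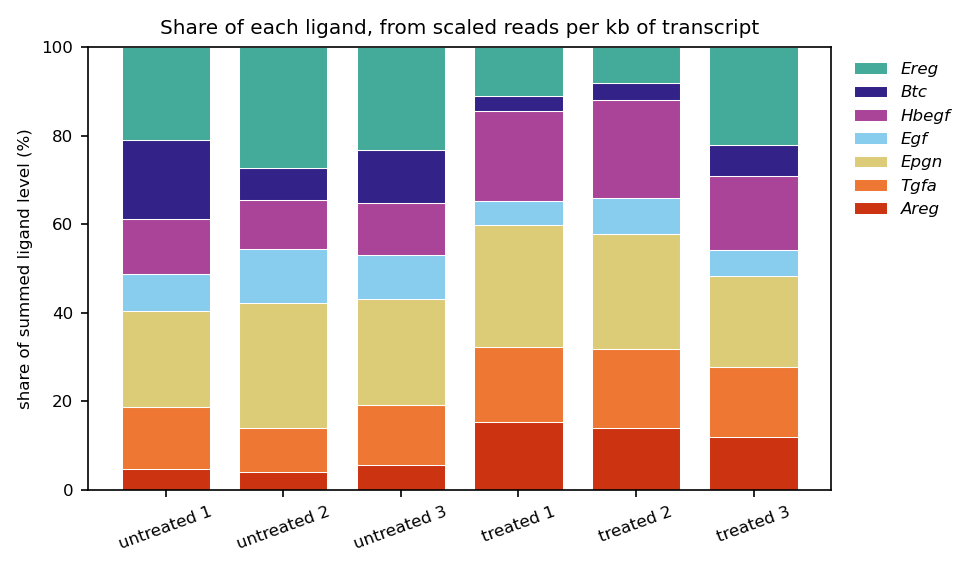
Share of each ligand in the summed ligand level of a library (y axis, percent), from scaled reads per kb of transcript, for the 6 libraries. Areg, Hbegf and Tgfa take larger shares in the 3 treated libraries, Btc and Egf smaller ones, and Ereg in T3 (22.2%) is like untreated skin.

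The 4 chromosome 5 ligand genes lie within 375.5 kb, from 91027517 to 91402994, with no other gene of the table between them, and they moved in different ways. Areg rose, Btc fell in the fit over 6 libraries, and Epgn and Ereg, which lie 112.1 and 65.0 kb before the Areg start, did not pass. The ratio of Areg to Epgn in scaled reads was 0.157, 0.101 and 0.165 in untreated and 0.397, 0.379 and 0.416 in treated libraries. The ratio of Areg to Btc was 0.112, 0.235 and 0.197 in untreated and 1.88, 1.48 and 0.716 in treated libraries, and that of Areg to Ereg 0.0668, 0.043 and 0.0697 and then 0.405, 0.504 and 0.158. All 3 ratios kept the groups apart, each with p = 0.1 by a two-sided exact permutation test (adjusted p = 0.1 over the 3 ratios), the smallest that 3 against 3 samples allow. With Areg, already called higher, set over genes that were not, this separation was largely given in advance. It is a description and no separate evidence. Since each ratio compares genes within a library, it does not depend on the scaling between libraries. Farther out, the chemokine genes Cxcl1 (log2 fold change 1.49) and Cxcl2 (4.72), which attract neutrophils, were called higher as well (limma adjusted p = 0.0131 and 0.00471), and Mthfd2l between Cxcl2 and Epgn was not (0.41, adjusted p = 0.169). Cxcl2 had only 6, 2 and 5 untreated reads and 442, 100 and 71 treated reads, most of them in T1. It lost its call with limma-voom (adjusted p = 0.0963). Parm1 on the far side of Btc had 0.46 with limma adjusted p = 0.051.

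**Figure D4:**
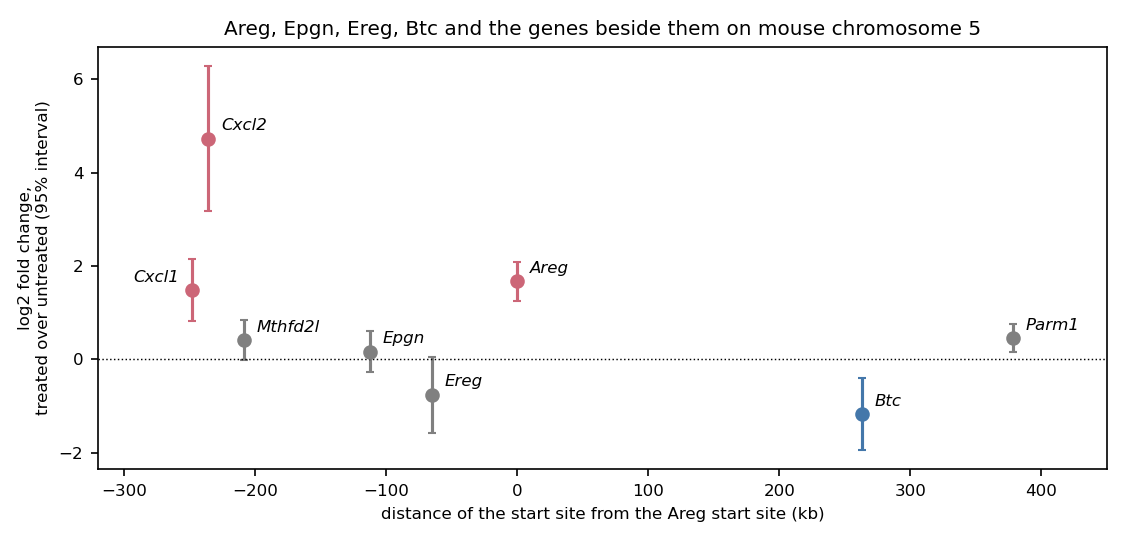
Log2 fold change (y axis, with 95% interval) of the chromosome 5 ligand genes and the table's genes within 150 kb of them, against the distance of each start site from that of Areg (x axis, kb). Areg is higher, Btc lower, and Epgn and Ereg, both to the left of Areg, have intervals that span 0.

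Of 67 other pathway genes in 6 lists, 65 were tested, 11 were called higher and 5 lower, beside 9.26% and 7.23% of all tested genes. Their median log2 fold change was 0.087. Among the sheddases and their partners, 4 of 10 rose and 1 fell. Adam17, the main sheddase of Areg, Tgfa and Hbegf, had a log2 fold change of 0.09 (limma adjusted p = 0.43). Adam12, a metalloprotease linked to release of HB-EGF, had 152.7, 65.6 and 152.2 untreated and 381.1, 680.7 and 585.6 treated scaled reads (4.60-fold, limma adjusted p = 0.00512), and all 20 alternatives called it. Timp3, an inhibitor of ADAM17, fell (-0.52, adjusted p = 0.0131). Adam10 (0.35, adjusted p = 0.0305), which cleaves Btc and Egf precursors, lost its call without U1 (0.0719), U2 (0.0847), T1 (0.0882) or T2 (0.115). Adam8 (0.66, adjusted p = 0.0399), also made by leukocytes, lost it without any 1 library but T3 (0.0596 to 0.112 by limma, with a log2 fold change of 0.43 without T1), as did Frmd8 (0.31, adjusted p = 0.0471, 0.0902 to 0.137), a partner of the iRhom proteins that carry ADAM17 to the surface.

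Of the neuregulins and Erbb4, 3 of 5 could be tested, 1 rose and 1 fell. Nrg1, a ligand of ERBB3 and ERBB4, had 38.5, 57.9 and 42.0 untreated and 248.8, 203.7 and 63.9 treated scaled reads. T3 was only just above U2. The log2 fold change was 1.68 (limma adjusted p = 0.0351), lost without U1 (0.105), U2 (0.0633), U3 (0.0803), T1 (0.107) or T2 (0.117). It was 1.31 without T1 and 2.28 without T3 (adjusted p = 7.86e-04). Nrg2 fell in all 20 alternatives (-1.11, limma adjusted p = 0.00716), and Nrg4 did not pass (-0.22, adjusted p = 0.411). Erbb4, below the filter, had 6, 16 and 5 untreated and 3, 2 and 13 treated reads, too few to compare the groups.

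Negative regulators of ErbB receptors held 2 called genes of 12, both higher. Rnf41, a ubiquitin ligase that acts on ERBB3, rose (0.43, limma adjusted p = 0.0123, 0.0505 without U1), and Socs4 rose over the 6 libraries (0.46, adjusted p = 0.0399, but 0.0586 to 0.115 without U1, U2, T1, T2 or T3). The feedback inhibitor gene Errfi1, an EGFR target, had a log2 fold change of 0.01 (95% interval -0.21 to 0.24), and Lrig1, which promotes receptor turnover, 0.07 (-0.17 to 0.31).

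Of the adaptors and RAS-MAPK cascade genes, 1 of 17 was called, the kinase gene Braf (0.39, limma adjusted p = 0.017, 0.056 without U1 and 0.0501 without U2), and the list median was 0.034. Among the Sprouty, Spred and Dusp feedback genes, which damp ERK signalling, 1 of 9 rose and 1 fell. Spred3 rose in all 20 alternatives (0.78, limma adjusted p = 0.012), and Spry1 (-0.39, adjusted p = 0.0453) lost its call without U1, U2, U3, T1 or T2 (0.0782 to 0.154). Of 14 ERK-responsive transcripts, 2 rose and 2 fell, with a median of -0.051. Plaur, the urokinase receptor gene, which is also expressed by neutrophils and macrophages, rose (1.64, limma adjusted p = 0.0141, 0.0555 with limma-voom). Phlda1 rose (0.55, adjusted p = 0.0278, but 0.0522 to 0.0954 without U1, U3, T1 or T2). Etv5 (-0.42, adjusted p = 0.029, 0.0518 to 0.104 without U1, U2, U3, T2 or T3) and Emp1 (-0.31, adjusted p = 0.0225, 0.054 to 0.0816 without U1, U2, T1 or T2) fell over the 6 libraries. Of the 20 alternatives, 19 called Timp3, Rnf41 and Plaur, 17 Braf, 15 Phlda1 and Emp1, 14 Adam10, 13 Adam8, Nrg1, Spry1 and Etv5, 10 Socs4 and 6 Frmd8, which other scalings of the libraries also left uncalled.

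**Figure D5:**
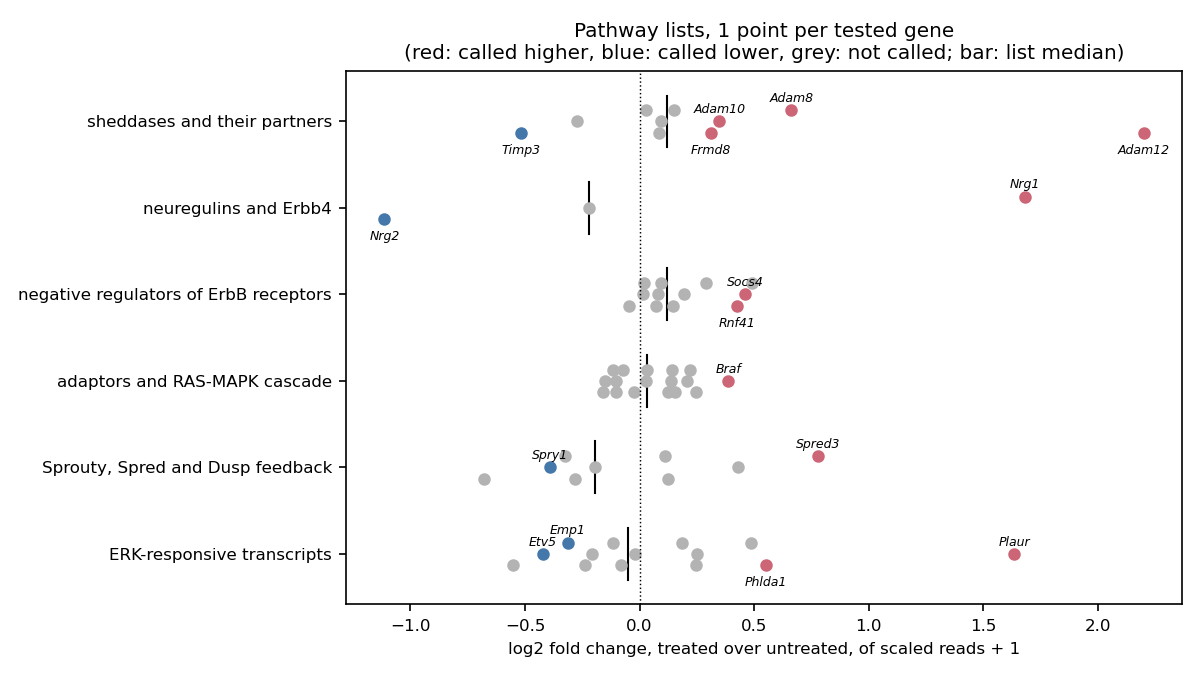
Log2 fold change (treated over untreated, x axis) of the 65 tested pathway genes by list, with called genes named and a bar at each list's median. Most genes lie near 0, and Adam12, Nrg1 and Plaur stand farthest to the right.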

How the data were processed

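Skin RNA was made into stranded mRNA libraries, per the labels' protocols. The submitters' processing notes name bcl2fastq 2.20.0.422, STAR, DESeq2 and the build mm10. How reads were counted, whether by strand, and any filter are not stated in the labels or the file header. Tgfa, Egf, Ereg, Egfr and Erbb2 overlap genes on the opposite strand in GENCODE M21, so their reads could include those of a partner. The authors deposited 1 table with a scaled signal per gene and library, their log2 fold changes, and their p-values and adjusted p-values. All scaled values were whole multiples of the value of 1 read (within 0.1), so reads were recovered. Recovered reads were 5770072, 4928245 and 5580401 in untreated and 5606959, 5821622 and 7545567 in treated replicates 1 to 3.

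Genes passing filterByExpr of edgeR 4.0.16 (minimum count 10, minimum total 15) entered a fit of log2(value + 1) by limma 3.58.1 (R 4.3.3), with group as the only term, a trend in the spread and Benjamini-Hochberg adjustment. On this scale the fold changes of low genes are understated. Intervals are 95% and not adjusted over genes. On data simulated from these 6 libraries, with 200 of 15534 genes changed, this test recovered 91% of 3-fold and 35% of 1.5-fold changes and called 6 of 15334 unchanged genes. Count tests were planned for raw counts. Since the values are scaled, the tests on recovered reads (edgeR, limma-voom, DESeq2 1.42.0) served as alternatives.

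The 10 members, the pathway and marker lists and the naming rule (all members, the called pathway genes, and Erbb4, Nrg1, Nrg4, Adam17, Errfi1 and Lrig1 whatever their result) were chosen with earlier results of these data known. The promoter motifs and the genes within 150 kb of the chromosome 5 ligands were chosen after the values were seen. Same-numbered samples of the groups did not vary together, so the numbers were not used as pairs. Plots used matplotlib 3.10.9 (Python 3.11.15).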

Additional observations from a re-analysis of the deposited data

How the results depend on the processing

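The count of 3 members higher held in all alternatives except the stricter threshold of adjusted p under 0.01, which left 2 (Areg and Hbegf). The count of members lower, 1 by the reported fit, was 0 with edgeR, limma-voom, no trend in the spread and the stricter threshold, 2 with DESeq2 (Btc and Egf), the 4 libraries of like depth (Btc and Ereg) and the replicate block (Btc and Egf), and 0 to 2 when single libraries were left out. Pathway genes called higher, 11 as reported, numbered 5 with limma-voom, 5 with no trend in the spread, 1 at the stricter threshold and 3 to 10 without single libraries. Those called lower, 5 as reported, numbered 2 with no trend in the spread, 1 at the stricter threshold and 2 to 5 without single libraries. The cause of these moves was not tested, beyond fewer samples in the fits without a library. Changes of sign were seen only among uncalled genes: Egfr (-0.066) and Erbb3 (-0.0026) in the libraries of like depth, and, without single libraries, Epgn (range -0.0061 to 0.36, negative without T1), Egfr (-0.027 to 0.22, negative without U2) and Erbb2 (-0.0901 to 0.028, positive without U1). Over all genes, 1439 higher and 1123 lower calls became 922 and 640 with no trend in the spread, 362 and 288 at the stricter threshold, and 691 and 545, 761 and 647, 859 and 623, and 610 and 529 without U1, U2, T1 and T2.

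Same-numbered samples had correlations of -0.085, -0.055 and 0.054 of their deviations from the group means, and not every sample correlated best with its own number. With the replicate block, 1348 genes were higher and 1096 lower, Egf was called (adjusted p = 0.036) and the pathway counts were 9 higher and 4 lower. The members had 0.031 to 0.284 reads per base of transcript, and reads estimated from filled positions, for the case that a position is counted once, changed no member's call. Areg had the fewest untreated reads of the 10 genes, 130 over the group.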

Other observations

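Spread within groups differed among the members. The pooled SD on the log2 scale was 0.647 for Ereg and 0.593 for Btc, at the 96.9th and 95.9th percentiles of the tested genes, and 0.104 for Erbb2 and 0.112 for Erbb3, at the 25.3rd and 29.3rd, beside a median of 0.159. Ereg and Btc thus had the least certain fold changes of the 10 genes (SE 0.36 and 0.34).

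The 5 tested genes whose log2 values were most like Areg over the 6 libraries were Slc11a1 (Pearson r = 0.9988), Il17f (0.9987), Marcksl1 (0.9977), Pla2g4e (0.9973) and Tgm3 (0.9972), a transglutaminase of the upper epidermis. The 6 points fall into 2 groups and the genes share libraries, so r is given as a description only. All 5 had their highest value in T1, as Areg did, which follows from their being picked by r with Areg. Slc11a1, a metal transporter of phagocytes, had 136.2, 126.1 and 129.5 untreated and 285.0, 236.3 and 245.3 treated scaled reads. Il17f, a cytokine of T cells and innate lymphocytes, had no read in the 3 untreated libraries and 54.3, 22.9 and 21.0 scaled reads in T1 to T3.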
